A study of Mus musculus with 6 samples.

Results

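Open chromatin at the ends of protein-coding genes was followed in sorted mouse hepatocyte nuclei after Cre was delivered to floxed Ncor1 and another floxed gene. Accessibility was read by ATAC-seq, an assay that lets the transposase Tn5 insert adapters into open DNA. Peaks of all 6 libraries that shared at least 1 bp were merged, and a region was taken as a gene-end region when it had a peak in every library and its midpoint lay within 1000 bp of the first or last base of a protein-coding gene span. There were 11487 such regions among 51749 regions with a peak in all 6 libraries, or 22.2%, and among 109853 merged regions in all. A region's value in a library was taken from its strongest peak there, as the deposited normalized tag count, a signal that the peak finder scales to library depth.

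The double-knockout nuclei (dKO, 3 libraries) came from livers of male mice that carried the floxed alleles and received an adeno-associated virus (AAV) with Cre. The control nuclei (3 libraries) came from male mice with the same floxed alleles that received AAV with eGFP, so virus and floxed alleles were shared by both groups. All livers were taken on day 5 after the virus at zeitgeber time 10, which is 10 h after lights on. Nuclei were sorted for HNF4a staining, and libraries followed the Omni-ATAC protocol. No source used here gives the promoter that drove Cre, the age of the mice or whether each library came from its own animal. The p-values therefore rest on the spread between libraries, part of which may be technical. Ncor1 encodes a corepressor that nuclear receptors recruit together with histone deacetylases.

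Most gene ends that are open in a nucleus are promoters. Many mammalian promoters lie in CpG islands, stretches rich in the CpG dinucleotide that tend to be open in every cell type. Promoters of liver-restricted genes are more often poor in CpG and bind hepatocyte factors such as HNF1, HNF4, FOXA and C/EBP. The CCAAT box is a short promoter element bound by the trimeric factor NF-Y, usually upstream of the start of transcription, and is common in promoters of sterol synthesis, endoplasmic reticulum stress and cell cycle genes. The finish of a gene, where transcription ends, is less often open.

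The sequences below are promoter windows that overlap gene-end regions described in the text. They are RefSeq windows of the build GRCm38.p6, from 250 bases before to 50 bases after the annotated gene start, written 5′ to 3′ on the gene's strand, with every CCAAT box in capitals (CCAAT, or ATTGG where the box is on the other strand). The first 3 belong to regions that were lower in dKO nuclei, Slc2a2 and Aass with 2 boxes each and Cyp2d9 with 1. They lie at chr3:28697653-28697952 (plus strand), chr6:23132937-23133236 (minus strand) and chr15:82452127-82452426 (plus strand).
Slc2a2: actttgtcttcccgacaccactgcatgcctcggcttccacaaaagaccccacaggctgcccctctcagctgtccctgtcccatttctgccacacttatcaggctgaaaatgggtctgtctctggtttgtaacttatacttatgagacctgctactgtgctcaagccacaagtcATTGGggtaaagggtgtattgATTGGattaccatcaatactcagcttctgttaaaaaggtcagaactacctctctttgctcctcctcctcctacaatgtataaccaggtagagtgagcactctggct
Aass: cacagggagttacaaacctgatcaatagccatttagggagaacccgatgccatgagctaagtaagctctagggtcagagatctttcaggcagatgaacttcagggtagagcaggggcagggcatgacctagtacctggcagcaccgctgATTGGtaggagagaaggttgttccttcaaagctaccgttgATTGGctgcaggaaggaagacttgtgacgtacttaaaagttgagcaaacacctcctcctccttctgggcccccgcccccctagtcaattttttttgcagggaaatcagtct
Cyp2d9: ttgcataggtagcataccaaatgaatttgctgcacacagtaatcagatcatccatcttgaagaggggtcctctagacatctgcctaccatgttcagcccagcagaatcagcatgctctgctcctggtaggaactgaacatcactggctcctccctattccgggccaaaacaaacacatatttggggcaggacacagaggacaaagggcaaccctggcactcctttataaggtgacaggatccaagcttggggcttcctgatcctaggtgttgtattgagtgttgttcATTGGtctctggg

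Windows of Hsd17b7 and Msmo1, which encode enzymes of sterol synthesis, and of Sel1l, which encodes a subunit of the endoplasmic reticulum degradation machinery, are shown because they carry 3, 3 and 4 boxes under regions that were lower in dKO nuclei. They were chosen after their values were seen. They lie on the minus strand at chr1:169969156-169969455, chr8:64733529-64733828 and chr12:91849108-91849407.
Hsd17b7: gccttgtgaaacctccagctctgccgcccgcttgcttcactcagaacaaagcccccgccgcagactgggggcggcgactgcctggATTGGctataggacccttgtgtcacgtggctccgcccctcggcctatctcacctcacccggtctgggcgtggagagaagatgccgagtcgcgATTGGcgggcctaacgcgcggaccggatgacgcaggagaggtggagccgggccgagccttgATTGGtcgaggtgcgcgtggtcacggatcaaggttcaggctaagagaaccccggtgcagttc
Msmo1: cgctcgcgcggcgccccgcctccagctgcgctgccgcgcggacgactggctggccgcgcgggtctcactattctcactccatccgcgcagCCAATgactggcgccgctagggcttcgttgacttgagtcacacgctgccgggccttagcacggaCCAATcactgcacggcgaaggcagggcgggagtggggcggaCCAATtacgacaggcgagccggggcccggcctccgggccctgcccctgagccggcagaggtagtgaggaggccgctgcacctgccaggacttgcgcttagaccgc
Sel1l: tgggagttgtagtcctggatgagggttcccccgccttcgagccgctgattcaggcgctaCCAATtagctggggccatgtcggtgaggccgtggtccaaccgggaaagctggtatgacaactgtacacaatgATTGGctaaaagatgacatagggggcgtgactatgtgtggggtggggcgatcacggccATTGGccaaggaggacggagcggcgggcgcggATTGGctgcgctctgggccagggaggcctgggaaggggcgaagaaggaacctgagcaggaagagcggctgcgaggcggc

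Acot1 and Fhdc1 are the windows of 2 regions that were higher in dKO nuclei, at chr12:84009252-84009551 (plus strand) and chr3:84480390-84480689 (minus strand). Acot1 has 1 box and Fhdc1 has none.
Acot1: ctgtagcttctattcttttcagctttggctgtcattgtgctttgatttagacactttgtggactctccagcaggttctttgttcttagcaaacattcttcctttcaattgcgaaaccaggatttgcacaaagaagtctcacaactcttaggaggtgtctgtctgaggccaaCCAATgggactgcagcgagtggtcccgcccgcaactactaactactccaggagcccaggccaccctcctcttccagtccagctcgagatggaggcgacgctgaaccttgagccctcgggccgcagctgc
Fhdc1: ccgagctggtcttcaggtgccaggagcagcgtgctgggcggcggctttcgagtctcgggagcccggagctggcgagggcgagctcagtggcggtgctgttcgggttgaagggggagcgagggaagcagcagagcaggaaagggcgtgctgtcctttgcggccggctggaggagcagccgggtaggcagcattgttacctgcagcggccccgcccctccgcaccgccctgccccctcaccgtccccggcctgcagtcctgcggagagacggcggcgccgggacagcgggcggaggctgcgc

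Hnf4a and Tbp are shown for regions that did not pass the test. Their windows lie on the plus strand at chr2:163506607-163506906, with 1 box, and at chr17:15499638-15499937, with none.
Hnf4a: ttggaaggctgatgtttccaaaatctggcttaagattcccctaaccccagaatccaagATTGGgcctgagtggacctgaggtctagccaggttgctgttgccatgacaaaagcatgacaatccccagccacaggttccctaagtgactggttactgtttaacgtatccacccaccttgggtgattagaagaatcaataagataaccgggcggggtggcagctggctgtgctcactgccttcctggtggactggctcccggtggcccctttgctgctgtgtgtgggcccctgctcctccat
Tbp: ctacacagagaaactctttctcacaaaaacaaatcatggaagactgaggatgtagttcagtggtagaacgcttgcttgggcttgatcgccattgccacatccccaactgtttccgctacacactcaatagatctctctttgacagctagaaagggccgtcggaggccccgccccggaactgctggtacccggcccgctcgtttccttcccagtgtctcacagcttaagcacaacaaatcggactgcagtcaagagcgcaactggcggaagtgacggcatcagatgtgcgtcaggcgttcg

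The gene-end regions stood nearest to 9895 genes, of which 8414 had 1 such region and 1481 had more. The nearest gene end was a start for 8272 regions and a finish for 912, and the strand of the gene was not known here for the other 2303. Of the regions with a known strand 90.1% were at starts, and 5131 of all gene-end regions lay within 100 bp of a gene end. A further 8808 merged regions at gene ends had a peak in only some libraries, among them 163 with a peak in all 3 dKO libraries and no control library and 96 with a peak in all 3 control libraries and no dKO library. The median over gene-end regions was 25.3, 23.0 and 32.3 tags in dKO libraries 1 to 3 and 31.7, 30.1 and 30.2 tags in control libraries 1 to 3. The other shared regions had medians of 13.5, 11.7 and 14.8 tags in dKO libraries and 13.3, 13.5 and 13.7 tags in control libraries. A site with no listed peak is not shown to be closed, and these regions were not tested.

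The libraries listed between 68316 and 84614 peaks. Nearly every peak of a list has the same width, with 1 peak of another width in control 1 and 1 in control 3, and this width was narrow in dKO 1, dKO 2 and control 1 and wider in dKO 3, control 2 and control 3. The main results are also given within the narrow-peak and within the wide-peak libraries. The narrow-peak class has 1 control library and the wide-peak class 1 dKO library, so the fit assumes that a lone library varies like the others. Library numbers in the labels fall into 2 series, with dKO 1 and control 1 in one and the other 4 libraries in the other. In bulk nuclei, fewer open nuclei and less opening per nucleus cannot be told apart. Among the markers of cell types, gene-end peaks in any library were found for all 10 hepatocyte genes and for none of the 10 T, B and NK cell genes. Such peaks were also found for 7 of 10 liver endothelial, 4 of 10 stellate, 4 of 10 cholangiocyte, 2 of 10 neutrophil and 1 of 10 macrophage genes. In all 6 libraries, regions were found for 5 hepatocyte, 4 cholangiocyte, 3 stellate, 2 endothelial, 1 macrophage and 1 neutrophil gene. The macrophage genes Clec4f, Vsig4 and Adgre1 and the cholangiocyte genes Krt19 and Krt7 had no gene-end region in all 6 libraries. The 1 macrophage gene with such a region, Spi1, had 40.6, 37.3 and 42.2 tags in dKO libraries and 40.4, 38.8 and 41.1 tags in control libraries. That region was not at a known gene start. Epcam, a cholangiocyte marker, had 12.8, 9.93 and 13.9 tags in dKO libraries and 5.91, 9 and 6.9 tags in control libraries (0.74, limma adjusted p = 0.0102). It was the called one of the 4 cholangiocyte genes. The neutrophil gene Elane had 8.86, 10.7 and 13.9 tags in dKO libraries and 29.3, 15.3 and 13.8 tags in control libraries, which overlapped (limma adjusted p = 0.0753). The endothelial genes Cdh5 and Tie1 were at 3.92 to 10.2 tags in every library. The part of other cell types in the results was not tested.

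Gene ends took 20.6%, 21.1% and 19.4% of the listed peaks in dKO libraries 1 to 3 and 20.4%, 19.1% and 19.5% in control libraries 1 to 3. The groups overlapped, with means of 20.4% ± 0.85 in the dKO group and 19.7% ± 0.64 in the control group (SD, n = 3 each). The means lay 0.68 percentage points apart (dKO minus control, n = 3 each, 2-sided exact permutation test, p = 0.3, where the smallest possible p is 0.1). Peaks at gene ends were the stronger ones in every library. Their median was 21.2, 19.4 and 29.4 tags in dKO libraries, where peaks elsewhere had medians of 10.8, 9.41 and 11.4 tags. In control libraries the medians were 26.4, 27.4 and 28.1 tags at gene ends and 10.2, 10 and 10.9 tags elsewhere.

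The dKO and control libraries were compared as log2(tags + 1), after the median of the 51749 shared regions had been subtracted in each library, by limma with Benjamini-Hochberg adjustment over all of them. At an adjusted p below 0.05, 317 gene-end regions were higher in dKO nuclei, or 2.76% of gene-end regions, where 8.19% of all shared regions were called higher. Another 1208 gene-end regions were lower in dKO nuclei, or 10.5%, where 11.6% of all shared regions were called lower. In either direction 13.3% of gene-end regions and 21.6% of the other shared regions were called, against 19.8% of all shared regions. The order of these shares was the other way round within the narrow-peak libraries, where 27.4% of gene-end regions and 20.8% of the other shared regions were called, and 24.3% of gene-end regions were lower, where 14.5% of all shared regions were. Without dKO 3 the shares called were 22.4% and 26.6%, but 19.3% of gene-end regions were lower, where 15.7% of all shared regions were. Within the larger library number series, an alternative added after the data were seen, 1.21% of gene-end regions were called, with 69 higher and 70 lower, where 4% of the others were. The smaller series has 1 library a group and no test. The regions called higher had a median log2 fold change of 0.60 and reached 1.72, and those called lower had a median of -0.50 and reached -1.51. The 3 dKO values all lay on one side of the 3 control values in 19.2% of gene-end regions, where 28.4% of all shared regions were so separated.

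Over all 6 libraries the share of called regions was also smaller at gene ends within classes of like strength, a description for which no test was made. Among regions with a mean of 40 or more tags 12.8% of 3408 gene-end regions and 27.9% of 2361 other regions were called. Among those with 10 to 20 tags the shares were 12.9% of 2251 gene-end regions and 24.4% of 13962 other regions. The median SD of log2 values between libraries was 0.13 at gene ends and 0.13 elsewhere in dKO libraries at 40 or more tags, and 0.11 at gene ends and 0.12 elsewhere in control libraries. Under 10 tags it was 0.18 at gene ends and 0.17 elsewhere in dKO libraries, and 0.19 at gene ends and 0.18 elsewhere in control libraries.

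**Figure D1:**
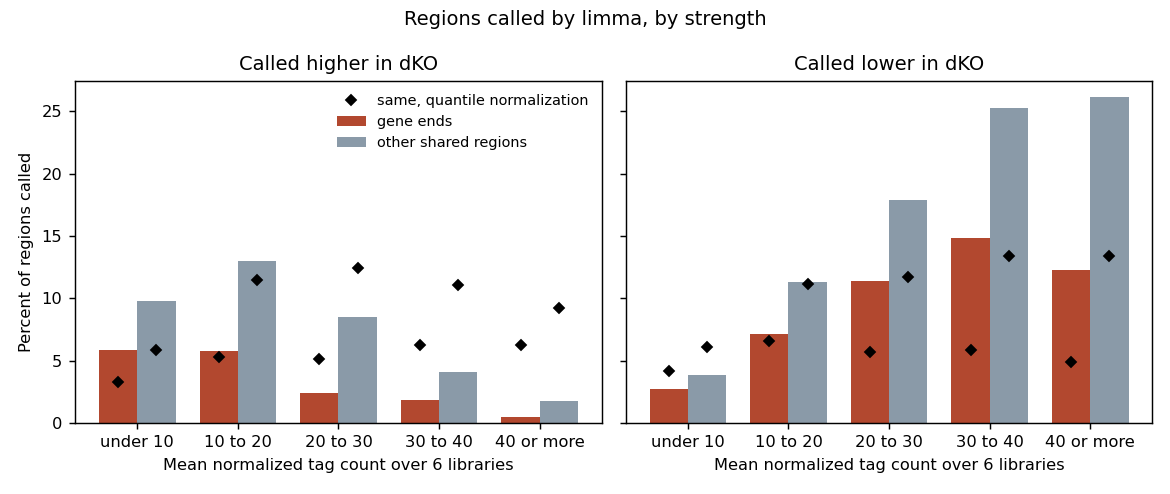
Percent of regions called higher in dKO (left panel) and lower in dKO (right panel) by limma, vertical axis, for gene-end regions (red bars) and other shared regions (grey bars) in 5 classes of mean normalized tag count, horizontal axis. Diamonds give the same shares after quantile normalization. Gene-end bars are below their neighbours in every class over all 6 libraries, as at 40 or more tags, where 0.50% of gene-end and 1.78% of other regions were higher and 12.3% of gene-end and 26.1% of other regions were lower.

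The balance between higher and lower calls at gene ends changed from one scaling to another. With median centring, 79.2% of the called gene-end regions were lower. After quantile normalization 631 gene-end regions were higher (5.49%, where 8.64% of all shared regions were) and 632 were lower (5.50%, where 8.86% of all shared regions were), so 50% of the called ones were lower. By that scaling 11% of gene-end regions were called in either direction, beside 17.5% of all shared regions. The median log2 fold change of gene-end regions was -0.10 with median centring and 0.01 for the other shared regions. It was -0.20 within the narrow-peak libraries and 0.02 within the wide-peak ones. The centred median over gene-end regions was 0.66, 0.73 and 0.86 in dKO libraries 1 to 3 and 0.94, 0.86 and 0.85 in control libraries 1 to 3. The value of dKO 3 lay among the controls, and control 1 was the highest. Calls made under all 6 scalings numbered 142 higher gene-end regions (1.24%, where 4.55% of all shared regions were) and 450 lower ones (3.92%, where 5.57% of all shared regions were). Within the wide-peak libraries, with 1 dKO library, limma called 0% of gene-end and 0% of all shared regions, and 1104 gene-end regions had an unadjusted p below 0.05, so that fit gives no calls to compare.

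Regions at gene starts and at gene finishes are set side by side here without a test. Regions nearest to a start were called higher in 1.83% and lower in 10.7% of 8272 cases. Regions nearest to a finish were called higher in 8.66% and lower in 9.87% of 912 cases. After quantile normalization the shares were 5.02% higher and 5.34% lower at starts, and 8.99% higher and 7.24% lower at finishes. Finish regions were weaker, with a median of 14.2 tags and 31.0 at starts. By class of strength, finish regions were called higher in 12.6% of 151 cases and start regions in 1.41% of 1847 at 20 to 30 tags, in 3.33% and 1.75% at 30 to 40 tags, and in 7.02% and 5.46% under 10 tags, a class in which quantile normalization gave 3.01% at finishes and 3.69% at starts. Where a region lay within reach of 2 gene starts and no finish, which holds for promoters shared by neighbouring genes, 3 of 883 were higher and 102 were lower, and after quantile normalization 27 were higher and 46 were lower.

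**Figure D2:**
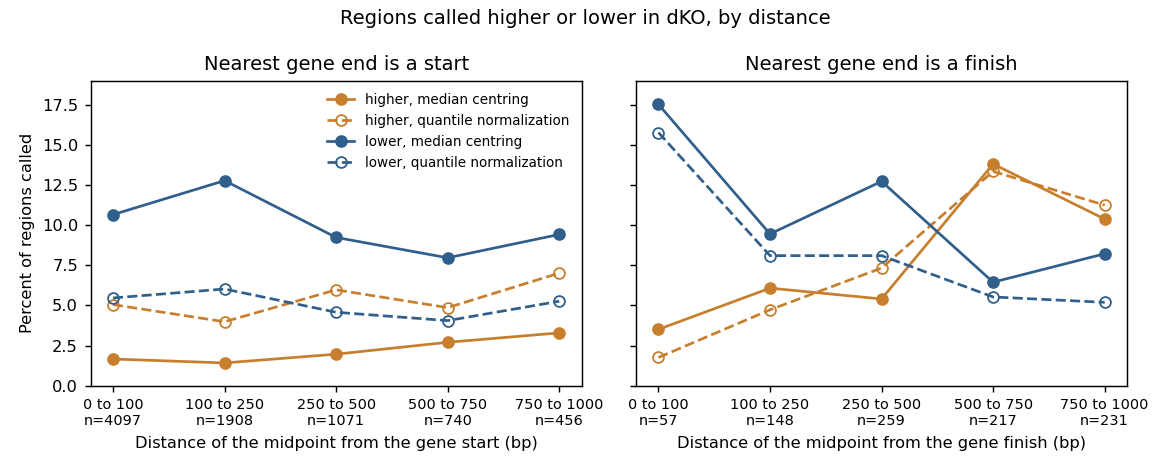
Percent of gene-end regions called higher (orange) or lower (blue) in dKO, vertical axis, against the distance of the region's midpoint from the nearest gene start (left panel) or finish (right panel) in bp, horizontal axis. Filled points with solid lines are from median centring and open points with dashed lines from quantile normalization, and n is the number of regions. At 0 to 100 bp from a start 1.66% were higher and 10.7% lower with median centring. At 500 to 750 bp from a finish 13.8% were higher and 6.45% lower.

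The regions just inside and just outside the limit of 1000 bp are given as a description. Between 900 and 1000 bp, 7.51% of 293 regions were higher and 9.22% were lower in dKO nuclei. Between 1000 and 1100 bp, 6.6% of 303 regions were higher and 12.2% were lower. Rfxank, a cofactor of MHC class II genes, was 1 of the 3 genes nearest inside the limit, beside Kcnj6 and Zc3hav1. Its region, 998.5 bp from its finish, had 36.1, 32.6 and 48.4 tags in dKO libraries and 47.2, 49.6 and 45.8 tags in control libraries. Slc17a4, with a region 1001.5 bp away, had 19.6, 15.1 and 20 tags in dKO libraries and 17.6, 22.9 and 16.8 tags in control libraries.

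RefSeq promoter windows shared at least 1 bp with 6393 gene-end regions, out of 21045 windows of protein-coding genes. Windows with at least 50% G and C and an observed to expected CpG ratio of at least 0.6 were called CpG-rich. They made up 77% of the windows under gene-end regions and 31.9% of the windows with no such region. In dKO nuclei 1.28% of 4925 regions over CpG-rich windows were higher and 10.4% were lower. Over the 1468 CpG-poor windows 2.52% were higher and 14.6% were lower, and after quantile normalization 4.81% were higher and 4.55% lower over CpG-rich windows, and 5.31% were higher and 8.65% lower over CpG-poor windows.

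Of 18 motifs searched on both strands, the CCAAT box (CCAAT) had the largest gap in percentage points between lower gene-end regions and those not called. It was present in 67.3% of the 725 windows under lower regions, 20% of the 100 windows under higher regions and 35.5% of the 5568 windows under regions not called. All windows of protein-coding genes held it in 38.5% of cases and windows under any gene-end region in 38.9%. A gap in points favours common motifs. The rarer HNF1 motif (GTTAAT) was in 7.86% of windows under lower regions and 3.66% of those under regions not called. As a ratio this is a wider gap than for the CCAAT box. The share of lower regions increased with the number of boxes in the window. Regions over windows with 0, 1, 2 and 3 or more boxes were lower in dKO nuclei in 6.07% of 3906, 14.1% of 1517, 22.7% of 618 and 38.1% of 352 cases. The share of higher regions went the other way, with 2.05%, 1.05%, 0.65% and 0% by limma, the last being 0.28% after quantile normalization. These classes were looked at after the values were seen, they carry no p, and a match of letters is not a bound site.

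The order of the 4 classes, in the lower share and in the median, was the same in each of the other scalings. After quantile normalization 2.64%, 5.74%, 11.3% and 25.9% of the 4 classes were lower. Calls under all 6 scalings gave 1.79%, 3.89%, 7.93% and 19.3% lower. The median log2 fold change was -0.09, -0.17, -0.27 and -0.36 over all libraries, 0.04, -0.02, -0.07 and -0.16 within the wide-peak libraries, and -0.20, -0.31, -0.45 and -0.62 within the narrow-peak libraries. With 1 library left out the lower share at 3 or more boxes ran from 5.97% (without dKO 2) to 47.4% (without dKO 3), with 10.2% without dKO 1 and 17.9% without control 1. The share with no box in these fits was 0.44% without dKO 2, 15.6% without dKO 3, 1.2% without dKO 1 and 2.8% without control 1. Within the larger library number series 0.13%, 0.46%, 0.97% and 0.85% of the 4 classes were lower, so the last step was not kept. The medians of the 4 classes there were -0.02, -0.08, -0.15 and -0.21. A smaller set of windows that overlapped their region by at least 100 bp gave 6.23%, 15.3%, 24.4% and 38.7% lower.

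The same regions and values can also be read inside each library, where a constant scaling of that library nearly cancels. A difference in range between libraries does not cancel, and this reading is no independent check. The median of log2(tags + 1) over windows with 3 or more boxes, minus that over windows with none, was -0.55, -0.52 and -0.49 in dKO libraries 1 to 3 and -0.06, -0.27 and -0.33 in control libraries 1 to 3. For windows with 2 boxes the difference was -0.24, -0.23 and -0.22 in dKO libraries and 0.08, -0.06 and -0.09 in control libraries. With 1 box it was -0.15, -0.14 and -0.15 in dKO libraries and -0.02, -0.06 and -0.08 in control libraries. The groups did not overlap in any of the 3 classes, and control 1 lay farthest from the dKO libraries in each. In tags, windows with 3 or more boxes had medians of 20.2, 18.7 and 27.1 in dKO libraries and 35.5, 28.4 and 27.6 in control libraries, so that on the deposited scale dKO 3 was near controls 2 and 3.

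**Figure D3:**
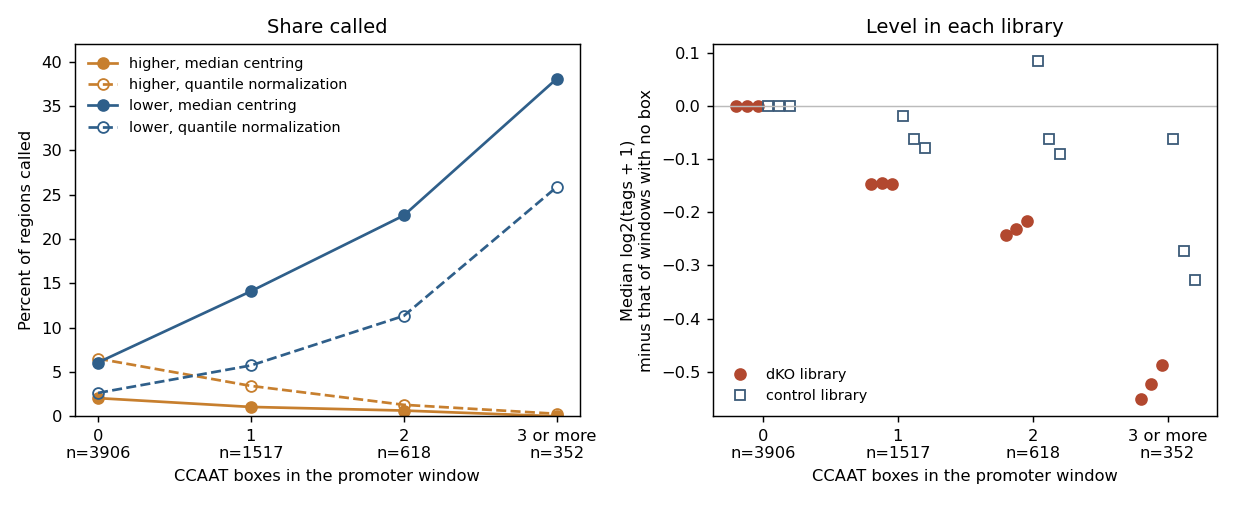
Left panel, percent of gene-end regions called higher (orange) or lower (blue) in dKO, vertical axis, by the number of CCAAT boxes in the 300-base promoter window, horizontal axis, with solid lines for median centring and dashed lines for quantile normalization. Right panel, for each dKO library (filled circles) and control library (open squares), the median log2(tags + 1) of windows with that number of boxes minus the median of windows with no box. The lower share reaches 38.1% at 3 or more boxes, where the dKO libraries lie at -0.55 to -0.49 and the control libraries at -0.33 to -0.06.

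Strength, base composition and place of the box were set beside these values. In the class of 20 to 30 tags, 5.06%, 16.8% and 30.3% of regions with 0, 1 and 2 or more boxes were lower, and at 40 or more tags 7.52%, 14.8% and 24.9% were. Among CpG-rich windows the shares were 5.00%, 13.4% and 28.3%, and among CpG-poor windows 10.1%, 16.1% and 28.0%. For a single box, the lower share was 11.2% at 200 to 250 bases before the start. It was 8.73% at 150 to 200 bases, 15.8% at 100 to 150 and 15.2% at 50 to 100. Within 50 bases before the start it was 16.9%, and within 50 bases after it 14.3%. By orientation, a single box went with 13.3% lower regions for CCAAT and 14.8% for ATTGG on the gene's strand.

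Other motifs were read in the 3906 windows without a CCAAT box, where 6.07% of regions were lower, since some of them, such as the C/EBP site, can share letters with a box. The HNF1 motif (GTTAAT, in 6.25% of all protein-coding windows) went with 15.4% lower regions of 149. The FOXA site (TGTTTAC, in 3.03% of all windows) went with 15.6% of 96, the TATA box (TATAAA, in 12.7%) with 12.4% of 233, and the C/EBP site (TTGCNNAA, in 10.3%) with 11.1% of 252. The GC box bound by SP1 (GGGCGG, in 46.7%) went with 5.12% lower of 2850, the ETS core (CCGGAAG, in 11.7%) with 5.72% of 891, the NRF1 site (GCGCATGC, in 3.54%) with 10% of 280, the cyclic AMP response element (TGACGTCA, in 2.26%) with 7.19% of 139, the HNF4 site (CAAAGTCCA, in 0.456%) with 6.25% of 16, and the steroid response element (ACANNNTGT, in 6.03%) with 7.32% of 123. In these windows the median log2 fold change was -0.14 with the HNF1 motif, -0.16 with the FOXA site, -0.19 with the NRF1 site, -0.16 with the cyclic AMP response element, -0.02 with the HNF4 site and -0.09 with the GC box.

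Individual regions were named by their p among regions whose groups did not overlap, 12 in each direction. Where the text says that groups were apart at these 24 regions, this was a condition of their choice and adds no support. The region with the smallest p lay 560 bp from the start of Fcgr3, which encodes a low-affinity receptor for IgG, at chr1:171065269-171065442. It had 54.5, 50.3 and 41.6 tags in dKO libraries and 13.9, 15.0 and 15.1 tags in control libraries. Every dKO value was above every control value, with a log2 fold change of 1.72 ± 0.15 (SE) and a limma adjusted p of 0.000272. It was 1.97 within the narrow-peak libraries and 1.31 within the wide-peak ones. Fcgr3 is best known from macrophages and other immune cells. Of 10 macrophage markers 1, Spi1, had a gene-end region in all 6 libraries, which was not at a known gene start. Its log2 fold change was 0.06 (adjusted p = 0.738 by limma). The part of immune cells in the Fcgr3 value was not tested. All 24 regions named by p kept their direction and call within the larger library number series, with adjusted p of at most 0.0435 by limma. The libraries of that series are among the 6 by which these regions were chosen, so this is no independent check.

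Other regions that were higher belonged to signalling and matrix genes. At Map3k1, a kinase upstream of the JNK pathway, the tags were 24.1, 19.1 and 17.3 in dKO libraries and 6.81, 7.61 and 6.90 in control libraries. At Spon2, which encodes a secreted matrix protein, they were 41.6, 30.3 and 35.7 in dKO libraries and 8.09, 16.9 and 11.9 in control libraries. By the rule of choice the groups did not overlap at either gene. The log2 fold changes were 1.43 ± 0.18 and 1.58 ± 0.20 (limma adjusted p = 0.000727 and 0.000752). Map4k4 (0.91), another kinase, Tmem171 (1.04), a membrane protein, and Nim1k (1.02), a kinase related to AMPK, were also higher.

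Several regions that were higher belonged to liver metabolism. Acot1 encodes a cytosolic acyl-CoA thioesterase induced by PPAR alpha, and its start had 35.6, 28.4 and 32.1 tags in dKO libraries and 16.7, 15.1 and 13.0 tags in control libraries. Cyp2a5, a cytochrome P450, had 72.2, 66.7 and 71.1 tags 902 bp from its finish in dKO libraries and 24.7, 41.8 and 18.7 tags in control libraries. Its close paralog Cyp2a4 had 33.6, 23.7 and 27.6 tags in dKO libraries and 11, 12.3 and 7.57 tags in control libraries. No group overlapped with its counterpart at these 3 regions, whose log2 fold changes were 1.11 ± 0.14, 1.41 ± 0.21 and 1.45 ± 0.18 (limma adjusted p = 0.000752, 0.00149 and 0.000752). Reads of near-identical copies could be placed on either gene, which makes single members of the Cyp2a, Acot, Cyp2d and Mup families uncertain.

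Srxn1 encodes sulfiredoxin, which restores oxidized peroxiredoxins. The region 726.5 bp from its finish had 58.2, 33.2 and 34.9 tags in dKO libraries and 17.2, 19.2 and 16.1 tags in control libraries, a log2 fold change of 1.24 ± 0.18 (limma adjusted p = 0.00147). Serpina7, the carrier of thyroxine, was higher by 1.09 and Fhdc1, a formin, by 1.26.

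Among the lower regions, the start of Slc2a2 carries 2 CCAAT boxes in the window shown above. Slc2a2 encodes the glucose transporter GLUT2, and its start had 18.5, 17.3 and 30.5 tags in dKO libraries and 57.2, 58.3 and 45.0 tags in control libraries. All dKO values were below all control values, dKO 3 being the closest to control, and the log2 fold change was -1.21 ± 0.15 (limma adjusted p = 0.000752). It was -1.49 within the narrow-peak libraries and -0.83 within the wide-peak ones. The start of Aass, which encodes an enzyme of lysine breakdown and also has 2 boxes, had 17.5, 18.6 and 22.7 tags in dKO libraries and 44.8, 31.9 and 44.5 tags in control libraries. The groups were again apart, by -0.94 ± 0.15 (limma adjusted p = 0.00184).

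Transport and secretion genes were further lower regions. Slc22a7 encodes the organic anion transporter OAT2 and had 21.9, 20.5 and 39.1 tags in dKO libraries and 80.6, 62.2 and 62.5 tags in control libraries. Cyp2d9, a P450 found mainly in male liver, had 11, 11.2 and 22.2 tags in dKO libraries and 46.6, 45.3 and 36.3 tags in control libraries. Both were separated between groups, with log2 fold changes of -1.29 ± 0.16 and -1.47 ± 0.18 (limma adjusted p = 0.000752 and 0.000751). Mup3, a secreted urinary protein (-1.39), C8b, a complement component (-1.03), and Rgs8, a regulator of G protein signalling (-1.04), were lower at their finishes. Stk11, the kinase LKB1 that activates AMPK, was lower near its start by 0.78 on the log2 scale. Cops4 (-1.11), a subunit of the COP9 signalosome, Otud6b (-0.87), a deubiquitinase, Wipf3 (-0.83) and Ccdc51 (-0.89) completed the 12. In 11 of these 12 lower regions, Otud6b being the exception with a change of -0.83 in the narrow-peak class and -0.86 in the wide-peak one, the change was larger within the narrow-peak libraries than within the wide-peak ones.

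**Figure D4:**
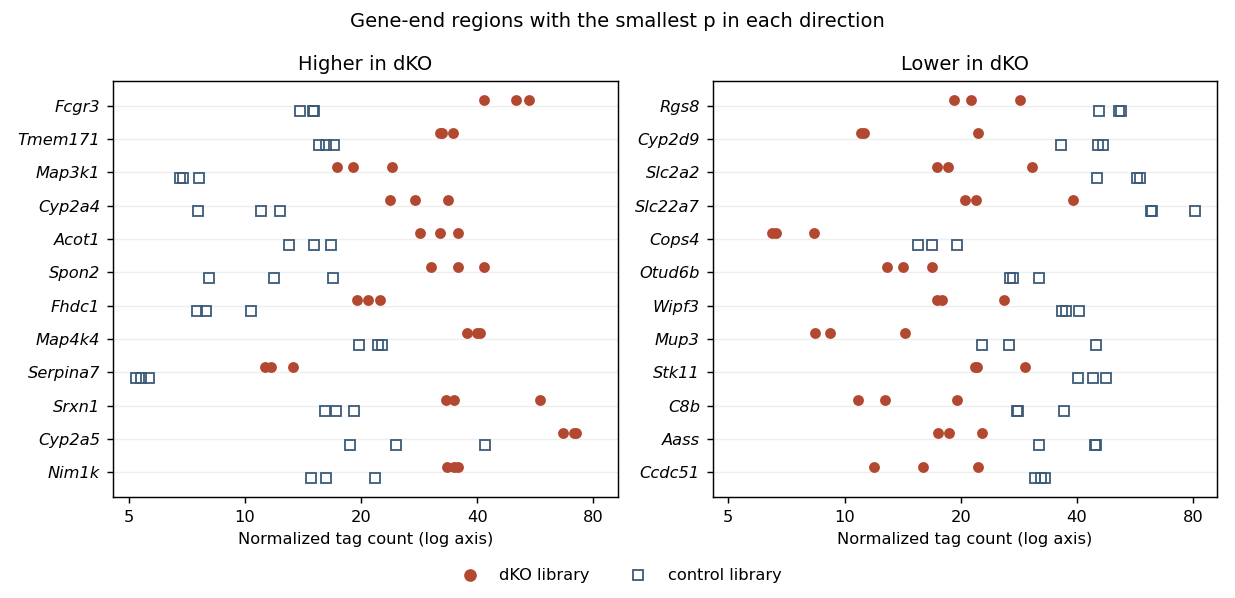
Normalized tag counts, horizontal axis on a log scale, of the 12 gene-end regions with the smallest p called higher in dKO (left panel) and lower in dKO (right panel), 1 row a gene. Filled circles are the 3 dKO libraries and open squares the 3 control libraries. At Fcgr3 the dKO libraries lie at 41.6 to 54.5 tags and the control libraries at 13.9 to 15.1, and at Slc2a2 the dKO libraries lie at 17.3 to 30.5 and the control libraries at 45.0 to 58.3.

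Gene lists were described by counts of called gene-end regions and by their median, beside 2.76% higher, 10.5% lower and a median of -0.10 over all gene-end regions. Counts at an unadjusted p below 0.05 are read against 2586 lower and 729 higher of the 11487 gene-end regions at that threshold. Genes given with a fold change alone are called members chosen after their values were seen. The sterol synthesis and uptake list had 21 gene-end regions, of which 12 were lower, 0 were higher and 9 did not pass limma's test, with a median of -0.43. At an unadjusted p below 0.05, 16 were lower and 0 were higher. The median was -0.75 within the narrow-peak libraries, -0.27 within the wide-peak ones and -0.31 after quantile normalization, when 9 were lower. Msmo1, a sterol demethylase, had 31.5, 32.3 and 39.5 tags in dKO libraries and 67.4, 47.7 and 49.5 tags in control libraries. Hsd17b7, a later enzyme of the pathway, had 25.3, 21.9 and 27.0 tags in dKO libraries and 48.9, 36.8 and 38.5 tags in control libraries. Groups were apart at both, by -0.59 ± 0.14 and -0.65 ± 0.13 (limma adjusted p = 0.0109 and 0.00489).

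Other sterol genes that were lower included Stard4 (-0.92), which carries cholesterol, Idi1 (-0.67), Insig1 (-0.55), which holds back the SREBP regulators, and Sqle (-0.49). Scap, the escort of SREBP, had a fold change of -0.10 (limma adjusted p = 0.584) and Srebf2 of -0.30 (0.147). Of 11 RefSeq windows under regions of their own sterol gene, 10 held a CCAAT box, and all 5 over lower regions did. In other lists the box was in 14 of 19 cell cycle windows, 3 of them over lower regions, in 5 of 17 proteasome windows, 0 of them over lower regions, and in 0 of 4 windows over lower acute phase and 2 of 6 over lower secreted protein regions.

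Amino acid breakdown was the list with the lowest median, -0.56 over 19 regions, of which 12 were lower and 0 higher by limma, or 17 lower and 0 higher at an unadjusted p below 0.05. After quantile normalization 10 were lower. Within the narrow-peak and within the wide-peak libraries the median was -0.71 and -0.34. Besides Aass, the start of Tat, a tyrosine aminotransferase induced by glucocorticoids, had 22.6, 23.2 and 30.7 tags in dKO libraries and 45.2, 44.5 and 34.3 tags in control libraries. The groups did not overlap, and the change was -0.62 ± 0.14 (limma adjusted p = 0.00825). A region near the finish of Tat had 34.7, 57.2 and 72.5 tags in dKO libraries and 87.6, 143.4 and 52.1 tags in control libraries. There the groups overlapped, and the region did not pass the test (-0.66 ± 0.29, limma adjusted p = 0.129). Tdo2 (-0.56), which opens the tryptophan ring, Got1 (-0.86), Cbs (-0.64), Mat1a (-0.58) and Asl (-0.59), a urea cycle enzyme, were also lower.

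The list of the glucocorticoid receptor and its targets had 6 lower and 0 higher regions of 12 by limma (10 lower and 0 higher at an unadjusted p below 0.05, and 3 lower after quantile normalization), with a median of -0.47, which was -0.79 within the narrow-peak libraries and -0.16 within the wide-peak ones. It shares Tat and Tdo2 with the amino acid list. Klf9 (-0.67), Cebpd (-0.69), Klf15 (-0.43) and Per2 (-0.46), all transcriptional regulators, were the others. Fkbp5, a chaperone of the receptor, had 23.0, 19.5 and 27.4 tags at its start in dKO libraries and 40.5, 30 and 27.7 tags in control libraries, and did not pass the test (-0.41 ± 0.15, limma adjusted p = 0.0631). In the gluconeogenesis list 7 of 20 regions were lower and 2 were higher, or 6 and 1 after quantile normalization. Its lower regions include those of Tat, Got1 and Klf15, which the amino acid or glucocorticoid list also counts. Fbp1, the fructose bisphosphatase, had 40.8, 41.6 and 63.1 tags in dKO libraries and 83.5, 94.8 and 72.7 tags in control libraries (-0.73 ± 0.14, limma adjusted p = 0.0038). Pcx (-0.68), the pyruvate carboxylase, and Irs2 (-0.62) were lower, and Pck2, the mitochondrial carboxykinase, was higher by 0.47.

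The stress list moved in both directions, with 8 of 25 regions lower and 2 higher. Xbp1, a factor of the unfolded protein response, had 17.3, 17.9 and 29.5 tags in dKO libraries and 44.1, 32.9 and 45.4 tags in control libraries (-0.86 ± 0.16, limma adjusted p = 0.00414). Asns, the asparagine synthetase, had 21.3, 13.9 and 14.8 tags in dKO libraries and 10.4, 9.33 and 10.7 tags in control libraries (0.70 ± 0.18, limma adjusted p = 0.0148). At Sel1l the start was lower by 0.59 on the log2 scale and the finish was higher by 0.53, 1 of 7 genes with called regions in both directions.

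The PPAR alpha and fatty acid oxidation list was, with median centring, the only one of the 21 pathway lists with a median above 0, at 0.05 (0.21 after quantile normalization, -0.04 within the narrow-peak libraries and 0.12 within the wide-peak ones). Of its 22 regions 5 were higher and 1 was lower. Besides Acot1 these were Fgf21 (0.86), a hormone secreted by the liver, Pex11a (0.73), a peroxisome protein, and Ehhadh (0.56) and Acot2 (0.47), enzymes of fatty acid breakdown.

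Housekeeping lists are read against the 13.3% of gene-end regions called in either direction. The proteasome list had 0 of 27 regions called by limma, 2 lower ones at an unadjusted p below 0.05 and 1 higher one after quantile normalization. Ribosomal protein genes had 2 higher, Rpl3 (0.92) and Rps19 (0.59), and 2 lower of 26, or 15.4% called. RNA polymerase II and general factors had 2 lower of 24, and the respiratory chain had 3 lower of 24, among them Cyc1 (-0.85), a subunit of complex III, or 12.5% called. Glycolysis and glycogen genes had 4 lower of 30 (13.3%), led by Gys2 (-0.78), the liver glycogen synthase.

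In the clock list 5 of 20 regions were lower, of which 1 was left after quantile normalization, and 1 was higher, Npas2, the partner of BMAL1 in place of CLOCK, with 22.2, 22.4 and 24.8 tags in dKO libraries and 6.33, 11.4 and 11.7 tags in control libraries (1.26 ± 0.20, limma adjusted p = 0.00184). Secreted liver proteins had 7 lower, against 3 after quantile normalization, with Serpina1a (-1.18), and 2 higher of 19, Hpx (1.03) and Trf (0.90), at 894.5 and 969 bp from a gene end. The higher Hpx region was at the gene's finish, and a region 12 bp from its start was not called (-0.20). Bile acid genes had 5 lower of 14 and 0 lower after quantile normalization (8 lower at an unadjusted p below 0.05 by limma), with Slc10a1 (-0.56), the bile salt uptake carrier, and Cyp7a1 (-0.49), the rate-limiting enzyme. P450 and conjugation enzymes had 5 lower and 2 higher of 15, and cell cycle genes 5 lower of 31, with Mcm3 (-1.12), a subunit of the replicative helicase. Acute phase genes had 5 lower, with Cxcl1 (-0.79), a chemokine, and 1 higher of 21, which is the same Hpx region. Fatty acid synthesis genes had 3 lower of 22. Other nuclear receptors had 2 lower of 20, the NCOR complex and deacetylases 2 of 16 (0 after quantile normalization), with Hdac1 (-0.57), a deacetylase whose groups overlapped, and hepatocyte transcription factors 2 of 9, Xbp1 and Nr5a2 (-0.48).

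**Figure D5:**
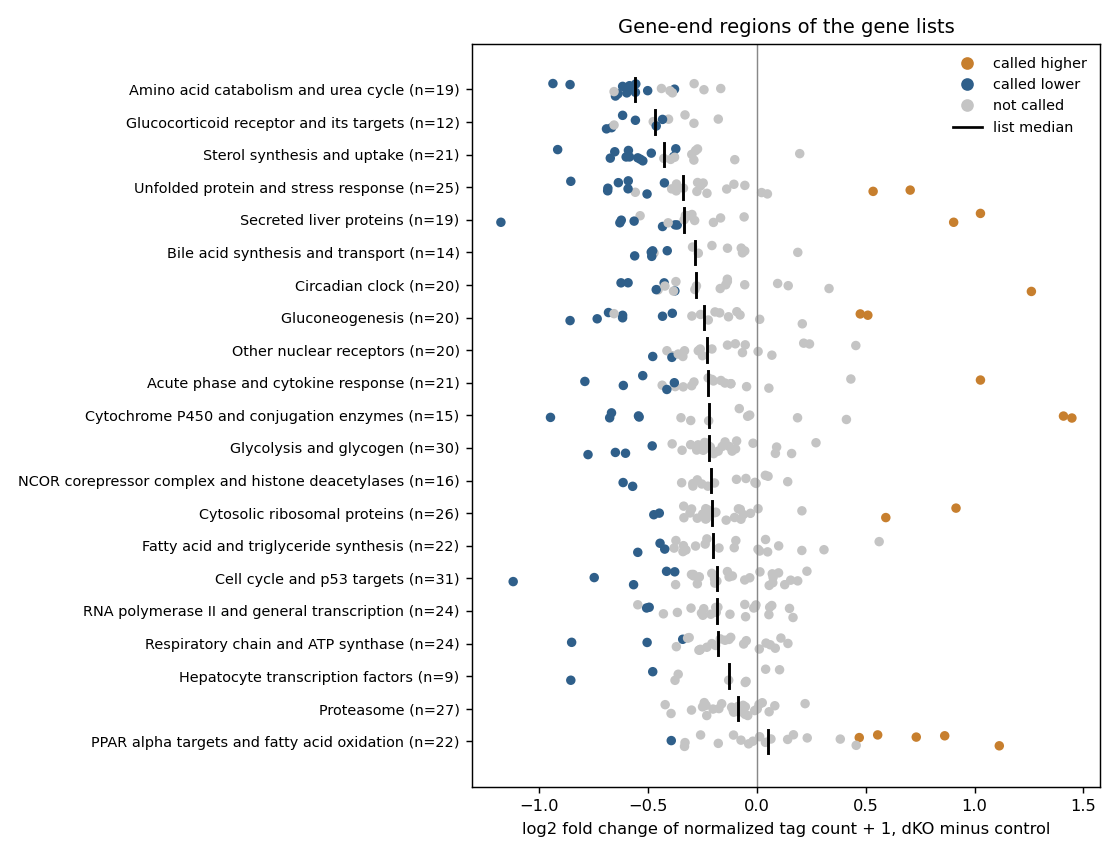
log2 fold change, dKO minus control, horizontal axis, of every gene-end region of the 21 pathway lists, 1 row a list with n regions, sorted by the list median (black bar). Orange points were called higher by limma, blue points lower and grey points were not called. The medians run from -0.56 for amino acid breakdown to 0.05 for PPAR alpha targets, and most points lie left of 0.

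Some genes were followed singly, from a set fixed whatever their values. Not every gene of that set is given here, and those left out include a region called lower. The start of Ncor1 had 51.5, 49.4 and 61.2 tags in dKO libraries and 63.0, 57.3 and 59.9 tags in control libraries, which overlapped (-0.09 ± 0.10, limma adjusted p = 0.551). The start does not report on the deletion, since no source used here gives the floxed exons. Hnf4a, the sorted marker, had 46.2, 43.4 and 59.1 tags in dKO libraries and 56.4, 56.1 and 47.8 tags in control libraries (-0.05 ± 0.11, adjusted p = 0.771 by limma). Tbp, a general transcription factor, had 36.5, 30 and 42.1 tags in dKO libraries and 43.7, 33.3 and 32.1 tags in control libraries (0.06 ± 0.13, adjusted p = 0.8 by limma). The signs of Ncor1, Hnf4a and Tbp changed with the scaling or filter. Gapdh, a glycolytic enzyme, had 1 region 730.5 bp from its start that was lower by 0.48 (limma adjusted p = 0.0133) and another 107 bp from it that did not pass the test (-0.11, limma adjusted p = 0.516).

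Pck1 and G6pc, the cytosolic carboxykinase and the glucose 6-phosphatase of gluconeogenesis, had no gene-end region in all 6 libraries and were not tested. At the start of G6pc a peak was listed in control 1 (20.7 tags) and control 3 (19.4 tags) and in no dKO library. At its finish a peak of 35.6 and 27.0 tags was listed in dKO 1 and dKO 2 and in no control library. A region 578.5 bp from the finish of Per1, a clock gene induced by glucocorticoids, had 24.5, 19.3 and 21.0 tags in the dKO libraries and no peak in control libraries. Alb, the major plasma protein, had 53.8, 70.9 and 115.5 tags near its finish in dKO libraries and 73.7, 155.0 and 135.6 tags in control libraries, where both groups spread widely and overlapped (limma adjusted p = 0.139).

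The 6 strongest gene-end regions did not pass limma's test. The first of them, near the finish of Lars2, a mitochondrial leucyl-tRNA synthetase, had 273.2, 253.0 and 402.5 tags in dKO libraries and 176.8, 301.3 and 383.2 tags in control libraries. Those of Hjurp, Gna11, Prkra, Ripk2 and Brpf1 had log2 fold changes between -0.20 and 0.12. Groups overlapped in all 6.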

How the data were processed

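ATAC-seq of sorted hepatocyte nuclei was analysed in 3 dKO and 3 control libraries. The authors deposited 1 peak list per library. Per the submitters' processing notes, Trim Galore 0.6.4, Picard, SAMtools 1.10, HOMER 4.11 and mm10 were used. No source used here gives the aligner, duplicate filters or any shift for Tn5. Per the file headers, each deposited peak has a normalized tag count, a signal scaled to library depth that was used as the value. The deposited focus ratio, a fraction, and the deposited fold over the local background were only summarised, the deposited score served a stricter threshold, and the deposited p-value and clonal fold were not used. Coordinates are those of the lists.

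Peaks were merged and assigned to RefSeq gene spans of GRCm38, of which 79.9% of 21631 protein-coding genes had a known strand. Values were compared as log2(tags + 1), each library centred on its median, with limma 3.58.1 (R 4.3.3), a mean-variance trend and Benjamini-Hochberg adjustment over 51749 regions, and called at an adjusted p below 0.05. The lowest deposited values lie on a step (97.1% or more of distinct values under 6). If 1 step is 1 tag, the lowest peaks hold 56 to 59 tags and the median peak 209 to 251 tags. Larger values are rounded, so no counts were recovered and no count model was used. On simulated data the estimates were unbiased and no unchanged region was called, but most seeded changes missed the threshold. The simulation had few changed regions and independent noise, with no structure by peak width or library number series. It checks the code only and gives no rate of false or missed calls for the real libraries.

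Deviations of same-numbered libraries correlated at 0.15, -0.03 and 0.23, so the replicate numbers were not taken to pair the libraries. With the library number series as a term 381 gene-end regions were higher and 1384 lower. Named regions were the 12 with the smallest p in each direction among called regions whose groups did not overlap, the called region with the smallest p in each direction in each gene list, a fixed set of single genes, the 6 strongest regions and those nearest the 1000 bp limit. Members and lists were chosen with earlier results of these data known, and the CCAAT classes after motif values were seen. Alternatives covered pseudocounts, filters, scalings, merging, distance, covariates, the replicate block and each library left out. Some members of the gene lists are counted but not reported here by name.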

Additional observations from a re-analysis of the deposited data

How the results depend on the processing

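Counts of higher and lower gene-end regions (317 and 1208) depended on scaling. There were 150 higher and 723 lower without centring, 783 and 638 centred on gene ends, 631 and 632 after quantile normalization and 620 and 643 after cyclic loess. Lower regions numbered 454 at a mean of at least 20 tags, 558 in the upper part of each list by score and 786 without a mean-variance trend, and 202 regions were higher within 500 bp. Within the narrow-peak libraries 2786 were lower (24.3%, where 14.5% of all shared regions were). Within the wide-peak ones limma called 0 higher and 0 lower of all shared regions too, with 1104 gene-end regions at an unadjusted p below 0.05. Within the larger library number series (2 libraries a group) 69 were higher (0.60%, where 1.74% of all shared regions were) and 70 lower (0.61%, where 1.64% were). Leaving out 1 library gave 78 (without dKO 2) to 347 (without dKO 3) higher and 164 (without dKO 2) to 2221 (without dKO 3) lower, with 1.43% to 19.3% of gene-end regions lower where 2.71% to 15.7% of all shared regions were. Without dKO 1 there were 126 and 273, without control 1 230 and 589, without control 2 259 and 902, and without control 3 203 and 944. With the replicate block there were 417 higher and 1484 lower, though the numbers were not taken to pair the libraries.

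The median of gene-end regions was -0.0051 at 20 tags or more, 0.032 centred on gene ends, -0.00037 after quantile normalization, 0.0013 after loess, 0.0216 within the wide-peak libraries and -0.16 to -0.06 with 1 library left out. The CCAAT difference was -0.42 within the narrow-peak libraries and -0.31 to -0.21 with 1 library left out. The percentage of peaks at gene ends differed by 0.33 to 1.15 points with 1 library left out. Some single regions changed sign. At 20 tags or more Ncor1 was at 0.0490, Hnf4a at 0.0892 and Gapdh at 107 bp at 0.0288. Centred on gene ends they were at 0.0429, 0.0831 and 0.0228, after quantile normalization at 0.0862, 0.126 and 0.0665, after loess at 0.0864, 0.122 and 0.0688, and in the upper part by score at 0.0257, 0.0659 and 0.0055. Within the wide-peak libraries Hnf4a was at 0.0899 and Gapdh at 0.0595, and within the larger number series at 0.0433 and 0.0294. Tbp was at -0.0062 without centring, -0.00047 with a width term, -0.26 within the narrow-peak libraries and -0.0328 (without control 3) to 0.197 (without control 1) with 1 library left out. The cause was not tested. Of the other values of single regions, 1632 kept direction and call, 128 kept direction but lost the call, 25 gained it, and 19 values with no call moved by more than their spread. The number of libraries limits which small changes can be called.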
